A study of Mus musculus with 2 samples.

Results

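The genes described here encode enzymes that remove reactive oxygen species, enzymes that make or use glutathione, and the factor Nfe2l2 with its sensor Keap1. They were taken by name from a list of 42 symbols, by a rule that uses no measured value, although the list was drawn up with earlier results of these data known, and all 42 were found among the 49492 genes of the count table. In cells, superoxide dismutases turn superoxide into hydrogen peroxide, which catalase, glutathione peroxidases and peroxiredoxins then break down. Glutathione and thioredoxin supply the electrons and are regenerated by their reductases, while glutathione transferases couple glutathione to reactive lipids and foreign compounds. The transcription factor Nfe2l2 (Nrf2) is held at a low level by Keap1 and raises many of these enzymes when oxidants or electrophiles modify Keap1.

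To learn how macrophages act on the mammary epithelium, the study took basal cells (CD24+ and high in CD29, sorted as lineage-negative) from the mammary glands of adult female mice with the genotype WT. These primary cells were grown for 11 to 14 days in a 3D matrix, in medium with EGF and insulin, transferrin and selenium. Cells with no treatment gave the library ctrl, and cells that shared the well with M2-like macrophages gave the library M2. The study's methods place the macrophages, which were derived from bone marrow, polarised with Il-4 and Il-13 and replaced every other day, in a porous insert. Each group holds 1 library, so that the spread between cultures is unknown, and whether cells of several animals were pooled is not stated in the sources used here.

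The libraries held 26912610 (ctrl) and 29413844 (M2) reads in genes. All 12 basal markers were well covered, among them Krt5 (56383 and 83619 reads) and Krt14 (81991 and 68968 reads). Of these 12, 6 had values above 0 and 6 below, with Krt17 called higher and Oxtr called lower (8324 and 1920 reads). All 12 markers of luminal epithelium were also found, of which 9 had values below 0 and 6 were called lower in M2, their summed level going from 4149 to 3346 CPM (reads in 1000000 of the effective library size, that is, total reads times a scaling factor). Of 18 macrophage markers, 7, including Tyrobp, Adgre1 and Ptprc, had 0 reads in both libraries, and the summed level of the list was 65.1 CPM in ctrl and 84.6 CPM in M2, most of it from Arg1 (1507 and 2090 reads). Of the 6 tested, 2 were called higher, namely Cd163 with 2 and 30 reads and Aif1 with 3 and 40. The fibroblast markers went from 3466 to 2681 CPM, with 4 called lower and 1 higher among 9 tested and Pi16 at 0 in both libraries. Postn held 76.5% of the reads of that list in ctrl and 92.9% in M2, and the log2 ratio of the sum was -0.37 with it and -2.10 without it. The markers of adipocytes went from 11.1 to 3.02 CPM, with 2 called lower, and Adipoq had 2 and 0 reads. Lep held 65.1% of these reads in ctrl, and the log2 ratio of the sum was -1.87 with it and -0.46 without it. Endothelial markers summed to 3.35 and 4.06 CPM, with 1 called higher and 2 lower among 5 tested. In such bulk libraries, fewer cells of a type and less RNA per cell cannot be told apart, and the part of these cell types in the results below was not tested.

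To compare the antioxidant genes between the libraries, a gene was called when it differed by at least 2-fold and had an adjusted p under 0.05 in an exact binomial test on its reads, adjusted over all 19233 genes tested. This test compares 2 libraries and not the conditions. All 42 genes passed the minimum of 10 reads over both libraries. The calls comprised 6 genes higher in M2 (Gpx2, Sod2, Sod3, Gsta4, Gstt1 and Mgst2) and 2 lower in M2 (Gpx3 and Gsta1), while 34 were not called. The largest adjusted p among the called genes was 0.0115, for Gsta1, followed by 6.82e-09 for Gstt1. Across the whole table, 8.16% of genes were called higher and 6.55% lower, and the counts among the 42 genes and among the related lists are to be read against these shares. For 12 of the 42 genes the interval of the difference included 0. The median log2 fold difference (M2 over ctrl) of the 42 genes was -0.00058, against -0.0032 for all genes tested. An absolute log2 difference under 0.5 was found for 26 of the 42 genes (61.9%) and for 63.7% of all genes tested. The called genes were spread over 3 of the 7 functional groups, and the peroxiredoxins, the thioredoxin system, the enzymes of glutathione synthesis and the group of Nfe2l2 held no called gene.

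**Figure D1:**
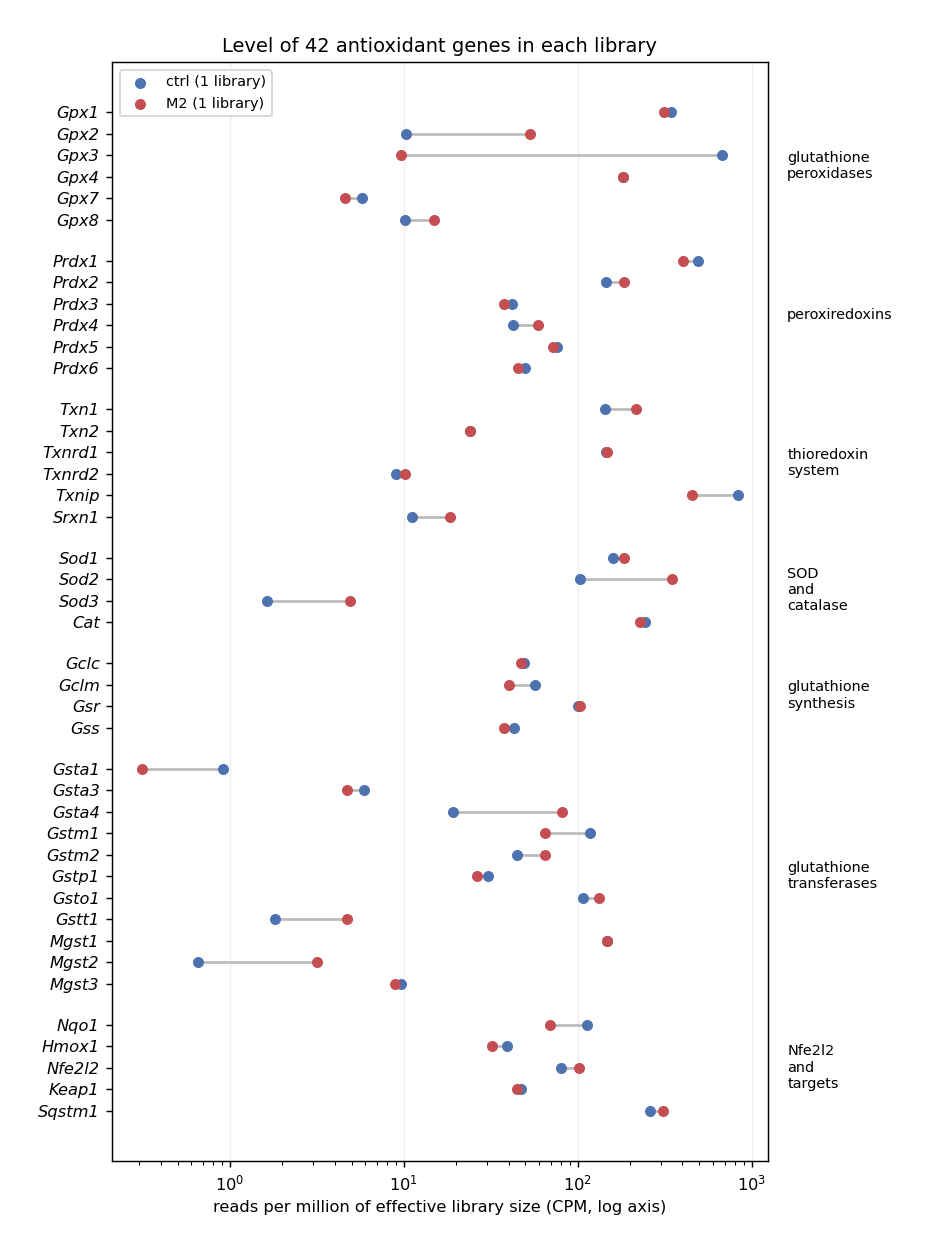
Level of each of the 42 genes in the ctrl library (blue) and the M2 library (red), as CPM on a log axis, with the genes ordered by function and a grey line joining the libraries. Gpx3 had the widest gap, from 676 to 9.68 CPM, while 26 of the 42 genes differed by under 0.5 on the log2 scale.

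The antioxidant genes together took up 0.512% of all reads in ctrl. Their share in M2 was 0.424%, and the summed levels had a log2 ratio of -0.21 (95% interval -0.22 to -0.20, which covers counting error only, as do all intervals here). Most of this difference came from Gpx3. Without it the log2 ratio was -0.0066 (-0.02 to 0.0049), and without Gpx3 and Txnip it was 0.14 (0.13 to 0.15).

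Of the 42 genes, Gpx3 differed most. It encodes the secreted glutathione peroxidase of plasma and extracellular fluid, and lies on chromosome 11 from 54902453 to 54910377 (GRCm38). It had 18576 reads in ctrl (676 CPM) and 279 reads in M2 (9.68 CPM), a 69.6-fold lower level with a log2 difference of -6.12 (95% interval -6.30 to -5.96). On the TPM scale, which gives transcripts in 1000000 after division by gene length, Gpx3 was the most abundant of the 42 genes in ctrl with 970 TPM and ranked 35 in M2 with 13.5 TPM. Of the adipocyte markers 2 of 3 tested were also called lower, with 1 value above 0, and of the fibroblast markers 4 of 9, with 2 above 0. The lowest values in these lists were those of Lep, at 198 and 6 reads (log2 difference -4.90), and Col14a1, at 13318 and 1603 reads (-3.12). Cidea (37 and 68 reads, 0.79) and Dcn (51 and 157 reads, 1.53) went the other way, and Postn had 72824 and 71795 reads (-0.09). Of the luminal markers, 6 of 12 were called lower and 3 had values above 0. The part of these cell types in the level of Gpx3 was not tested.

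Of the other glutathione peroxidases, 1 was called, in the opposite direction. Gpx2, which is best known from the epithelium of the gut, rose from 284 to 1525 reads (10.3 to 52.9 CPM), a log2 difference of 2.35 (2.17 to 2.54) at chromosome 12, 76792335 to 76795554. Gpx1, the general cytosolic enzyme, had 9439 and 9021 reads (344 and 313 CPM), and Gpx4, which reduces lipid hydroperoxides in membranes, had 4993 and 5222 reads, with log2 differences of -0.13 (-0.18 to -0.09) and -0.0045 (-0.06 to 0.05). Gpx7 and Gpx8 are enzymes of the endoplasmic reticulum. Gpx7 had 158 and 133 reads (log2 difference -0.32) and Gpx8 had 278 and 430 reads (0.56), and neither was called. The make-up of the family thus differed between the libraries. Gpx3 made up 50.3% of its summed TPM in ctrl and 1.35% in M2, Gpx1 32.2% and 54.9%, Gpx4 14.2% and 26.6%, and Gpx2 1.31% and 12.5%. The summed level of the family had a log2 ratio of -1.09 (-1.12 to -1.06), and of 0.04 without Gpx3.

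To examine the removal of superoxide, the dismutases were compared. Sod2, the manganese enzyme of mitochondria and a known target of NF-κB, rose from 2823 to 10014 reads (103 to 347 CPM), a 3.38-fold higher level with a log2 difference of 1.76 (1.70 to 1.82), at chromosome 17, 13007839 to 13018119. Sod3, the extracellular enzyme, also rose, from 45 to 142 reads (1.64 to 4.93 CPM), with a log2 difference of 1.57 (1.10 to 2.11), at chromosome 5, 52363791 to 52371418, but stayed at a low level. Of the fibroblast markers, 7 of 9 tested had values below 0 (median -1.53), and Dcn (51 and 157 reads, log2 difference 1.53) was the only one called higher, as Sod3 was. Their part in the level of Sod3 was not tested. Sod1, the copper and zinc enzyme of the cytosol, had the highest TPM of this group (644 and 717), with 4391 and 5291 reads (160 and 184 CPM) and a difference of 0.20 (0.14 to 0.26). Cat, the catalase of peroxisomes, had 6652 and 6586 reads and a difference of -0.08 (-0.13 to -0.03). The level of Sod2 per length was 0.109 times that of Sod1 in ctrl and 0.320 times in M2, and relative to Cat it went from 0.290 to 1.04.

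**Figure D2:**
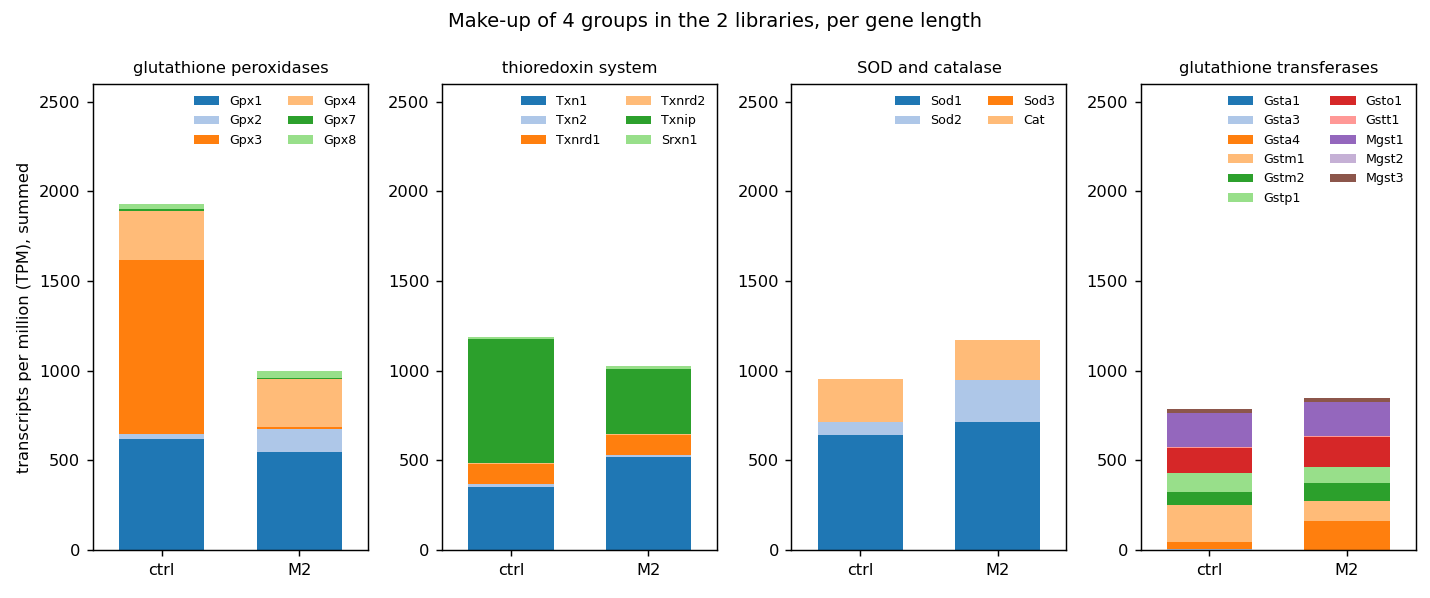
Summed level per gene length (TPM) of 4 groups in the ctrl and M2 libraries, with each gene as a segment of the bar (1 library per bar, no error bar possible). In the glutathione peroxidases the Gpx3 segment falls from 970 to 13.5 TPM, the Txnip segment goes from 693 to 367 TPM, and the Sod2 and Gsta4 segments grow from 69.9 to 229 TPM and from 39.6 to 161 TPM.

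In the glutathione transferases, 3 of 11 genes were called higher and 1 lower. Gsta4, which detoxifies the lipid peroxidation product 4-hydroxynonenal, rose from 530 to 2333 reads (19.3 to 81.0 CPM), a log2 difference of 2.07 (1.93 to 2.21), at chromosome 9, 78182774 to 78209349. Gstt1, an enzyme of the theta class, rose from 50 to 136 reads (1.82 to 4.72 CPM), with a difference of 1.36 (0.90 to 1.87), at chromosome 10, 75783813 to 75798584. Mgst2, a membrane enzyme that can also form leukotriene C4, rose from 18 to 91 reads (0.655 to 3.16 CPM), with a difference of 2.21 (1.53 to 3.09), at chromosome 3, 51660360 to 51682677. Both were rare transcripts in either library. Gsta1, at chromosome 9, 78230656 to 78242684, had 25 and 9 reads (0.910 and 0.312 CPM) and was called lower with a log2 difference of -1.45 (-2.83 to -0.40). Its close paralog Gsta2, from the list of other Nfe2l2 targets, had 50 and 7 reads, and reads of these genes could have been exchanged in the authors' counting.

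Among the transferases that were not called, Gstm1 came nearest to the threshold. It had 3247 and 1876 reads (118 and 65.1 CPM), a log2 difference of -0.86 (-0.94 to -0.78), and it was the transferase with the highest TPM in ctrl (209) but not in M2 (111). Gstm2, a paralog near it on chromosome 3, had 1230 and 1878 reads and a difference of 0.54 (0.44 to 0.65), so that the ratio of Gstm1 to Gstm2 per length was 3.01 in ctrl and 1.14 in M2. Gstm6 (88 and 20 reads) and Gstm7 (222 and 57 reads) were called lower, at -2.15 and -2.01, and Gstm4 and Gstm5 were not called. The Gstm genes are similar in sequence, and the value of each is therefore uncertain. Mgst1, with 4030 and 4246 reads (146.7 and 147 CPM), differed by 0.0061 (-0.06 to 0.07) and had the highest TPM of the transferases in M2 (185). Gsto1 had 2955 and 3799 reads (0.29), Gstp1 838 and 760 (-0.21), Gsta3 163 and 136 (-0.33) and Mgst3 264 and 256 (-0.11).

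The peroxiredoxins were abundant and close to equal in the libraries, with log2 differences from -0.29 to 0.48 and 0 of 6 called. Prdx1, a cytosolic form and the one with the highest TPM in both libraries, had 13489 and 11552 reads (491 and 401 CPM) and a difference of -0.29 (-0.33 to -0.26). Prdx2, also cytosolic, had 3988 and 5327 reads (0.35), and Prdx4, the form of the endoplasmic reticulum, had 1172 and 1713 (0.48). The mitochondrial Prdx3 (1147 and 1091 reads), Prdx5 (2076 and 2082 reads) and Prdx6 (1371 and 1301 reads) had differences of -0.14, -0.07 and -0.14. All 6 values lay inside a 2-fold range. Exons of Prdx2 share 177 bases with Rnaseh2a (786 and 1007 reads) and 173 bases with Junb (7829 and 4967 reads), both on the opposite strand. Those of Prdx5 share 409 bases with Trmt112 (490 and 508 reads). The counts of Prdx2 and Prdx5 may therefore hold reads of those genes. Srxn1, the sulfiredoxin that repairs overoxidised peroxiredoxins, had 306 and 531 reads and a difference of 0.72 (0.52 to 0.93), below the threshold.

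In the thioredoxin system, 0 of 6 genes were called, but its abundant members lay on opposite sides of 0. Txnip, which binds thioredoxin and restrains glucose uptake, gave 22857 reads in the ctrl library (832 CPM) and 13080 in the M2 library (454 CPM), a 1.83-fold lower level that missed the 2-fold threshold, with a log2 difference of -0.87 (-0.91 to -0.84). Its exons share 606 bases (19.4% of their length) with Gm15441 on the opposite strand, which had 5269 and 3177 reads and a difference of -0.80, and reads of this pair cannot be told apart, as no source says whether counting was by strand. Txn1, the cytosolic thioredoxin, had 3921 and 6208 reads (143 and 215 CPM) and a difference of 0.59 (0.54 to 0.65). Per length, Txn1 stood at 0.510 times Txnip in ctrl and at 1.41 times in M2. The reductase Txnrd1 had 3992 and 4241 reads and a difference of 0.02 (-0.04 to 0.08), and the mitochondrial pair Txn2 (658 and 692 reads) and Txnrd2 (246 and 294 reads) had differences of 0.0034 and 0.19.

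The enzymes that make and recycle glutathione had 0 of 4 called genes. Gclm, the modifier subunit of the rate-limiting glutamate-cysteine ligase, had 1569 and 1155 reads and a log2 difference of -0.51 (-0.62 to -0.40), while its catalytic subunit Gclc had 1343 and 1361 reads and a difference of -0.05 (-0.16 to 0.06). Glutathione synthetase, Gss, had 1176 and 1079 reads (-0.19). Glutathione reductase, Gsr, which had the highest TPM of this group in both libraries, had 2766 and 2976 reads (101 and 103 CPM) and a difference of 0.04 (-0.04 to 0.11).

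**Figure D3:**
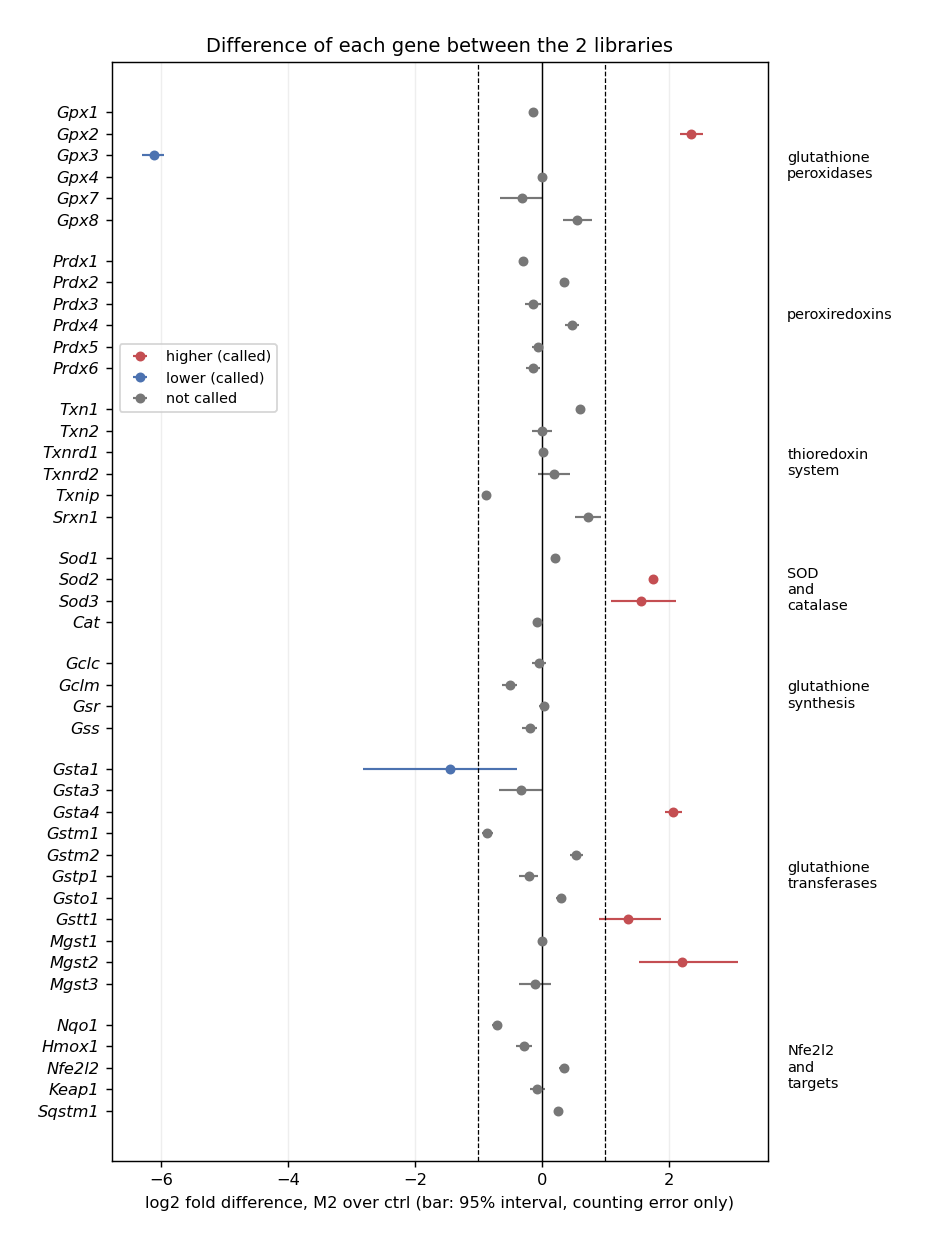
Log2 fold difference (M2 over ctrl) of the 42 genes with 95% intervals that cover counting error only, in red where called higher, blue where called lower and grey where not called, with dashed lines at a 2-fold difference. The 6 genes called higher lie between 1.36 and 2.35, Gpx3 stands alone at -6.12, and the interval of Gsta1 is wide.

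To ask whether targets of Nfe2l2 moved together, the factor and its best known targets were examined. Nfe2l2 itself had 2187 and 2918 reads, a log2 difference of 0.35 (0.27 to 0.43), and Keap1 had 1294 and 1292 reads, a difference of -0.07 (-0.18 to 0.04). Sqstm1, the autophagy receptor that can bind Keap1, had the highest TPM of this group, with 7129 and 8874 reads (260 and 308 CPM) and a difference of 0.25 (0.20 to 0.29). Sqstm1 is also counted among the targets below. The detoxifying targets placed in this group had values below 0, with Nqo1, a quinone reductase, at 3094 and 1987 reads (-0.71, interval -0.79 to -0.63) and Hmox1, which breaks down haem, at 1073 and 922 reads (-0.29, interval -0.42 to -0.16). None of these 5 genes was called. Of the 17 genes among the 42 that are commonly named as Nfe2l2 targets, 2 were called higher (Gpx2 and Gsta4) and 1 lower (Gsta1). Their median was -0.05, with 8 values above 0, and their summed level had a log2 ratio of 0.03 (0.02 to 0.05).

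Nfe2l2 binds the antioxidant response element, whose core was searched as TGACNNNGC on both strands in the 250 bases before each RefSeq start, in windows of GRCm38.p6. Windows were given for 36 of the 42 genes (43 windows, as some genes have several starts). The core was found in 7 of the 43 windows (16.3%), against 10.2% of all 32851 windows. The AP-1 site TGANTCA, which can overlap the core, was found in 4 of 43 (9.30%), against 6.75% of all windows. All 7 genes with the core had log2 differences between -0.51 and 0.35. None was called, against 8.16% of all genes called higher and 6.55% lower, and 7 genes are too few to read a difference from this. Of the 8 called genes, 6 had a window, and of these Mgst2 held an AP-1 site. The other genes with that site were Gstp1 (log2 difference -0.21), Prdx1 (-0.29) and Srxn1 (0.72), which were not called. A match is a description of the letters and not of a bound site, and its absence from a short window says nothing about the factor. The stretches that hold the core are given here, to show which genes carry the letters beside the values above, followed by the site of Mgst2, each read 5′ to 3′ on the gene's strand with the match in capitals. The core is on the opposite strand in Prdx1, Gclm, Txnrd1, Sod1 and Mgst1. In Prdx1 the core overlaps an AP-1 match. The stretches of Mgst1 and Mgst2 lie before a RefSeq start that is downstream of the first base of the gene in the count table, so that they are inside the gene as counted.
Prdx1 (chr4:116685451-116685489, + strand): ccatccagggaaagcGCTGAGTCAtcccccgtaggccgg
Nfe2l2 (chr2:75704880-75704913, - strand): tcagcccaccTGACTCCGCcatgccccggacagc
Gclm (chr3:122245408-122245446, + strand): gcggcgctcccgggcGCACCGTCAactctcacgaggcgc
Txnrd1 (chr10:82859099-82859137, + strand): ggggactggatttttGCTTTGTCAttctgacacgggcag
Sod1 (chr16:90220691-90220729, + strand): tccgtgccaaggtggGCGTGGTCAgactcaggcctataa
Mgst1 (chr6:138140456-138140494, + strand): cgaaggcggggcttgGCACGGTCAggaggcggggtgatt
Gsta3 (chr1:21240449-21240487, + strand): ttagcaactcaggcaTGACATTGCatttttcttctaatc
Mgst2 (chr3:51661112-51661148, + strand): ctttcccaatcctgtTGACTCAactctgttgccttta

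The wider pathway was described with 6 further lists. Of 23 tested targets of Nfe2l2 outside the 42 genes, 2 were called higher, 1 lower, and the median was 0.20. Akr1b8, an aldo-keto reductase, rose from 82 to 576 reads (log2 difference 2.73, interval 2.41 to 3.10), and Slc7a11, the cystine importer that feeds glutathione synthesis, rose from 131 to 396 reads (1.52, interval 1.24 to 1.82), while Gsta2 was the gene called lower. Fth1, the ferritin heavy chain, had 13050 and 26171 reads and a difference of 0.93 (0.90 to 0.97), just under the threshold. Among 12 partners and regulators of Nfe2l2, Nfe2l3, a related factor, rose from 179 to 1249 reads (2.73, interval 2.51 to 2.97), and it was the only called gene. The median of that list was 0.0025.

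Of 29 other enzymes that use or handle glutathione, 4 were called higher and 5 lower, with a median of -0.10, against 8.16% and 6.55% of all genes. Ptges, the glutathione-dependent prostaglandin E synthase, rose from 28 to 1908 reads, with a difference of 5.97 (5.49 to 6.61). Glutaredoxin, Glrx, rose from 325 to 854 reads (1.32), Gstk1 from 185 to 444 (1.19) and Ggt5 from 20 to 54 (1.32). Ggct and Oplah, neighbouring steps of the cycle that recycles the glutamate of glutathione, fell from 1380 to 444 and from 1150 to 562 reads, with differences of -1.70 and -1.10. Of 19 other thioredoxin-fold and repair proteins, 0 were called (median -0.03). Of 23 other selenoproteins and factors of selenocysteine insertion, the 2 called higher were the deiodinases Dio2 (118 and 355 reads) and Dio3 (6 and 142 reads), enzymes of thyroid hormone conversion, and the median was 0.16.

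Of 15 tested enzymes that produce oxidants, 7 were called higher and 3 lower, with a median of 1.19. That median is the value of Ncf1, which had 4 and 11 reads and an interval of -0.37 to 3.50, and Noxa1, Nos2 and Lpo had only 1 or 2 reads in ctrl. Cyba, the membrane partner of several NADPH oxidases, rose from 205 to 1263 reads (log2 difference 2.55, interval 2.34 to 2.77), Noxo1, an organiser of Nox1, from 194 to 801 reads (1.97, interval 1.75 to 2.21), and Ero1l, the oxidase of disulfide formation in the endoplasmic reticulum, from 1701 to 6854 reads (1.94, interval 1.86 to 2.02). Nos2, the inducible nitric oxide synthase, was counted 2 times in ctrl and 142 times in M2, and the interval of its log2 difference was 4.20 to 9.14. Nox1 itself had 109 and 110 reads. Called lower were Nox4 (1108 and 501 reads), Duox1 (195 and 86 reads) and Maob (164 and 35 reads). Cybb, the oxidase of phagocytes, had 0 and 5 reads and was below the minimum for the test. The counts of called genes were not compared between lists.

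**Figure D4:**
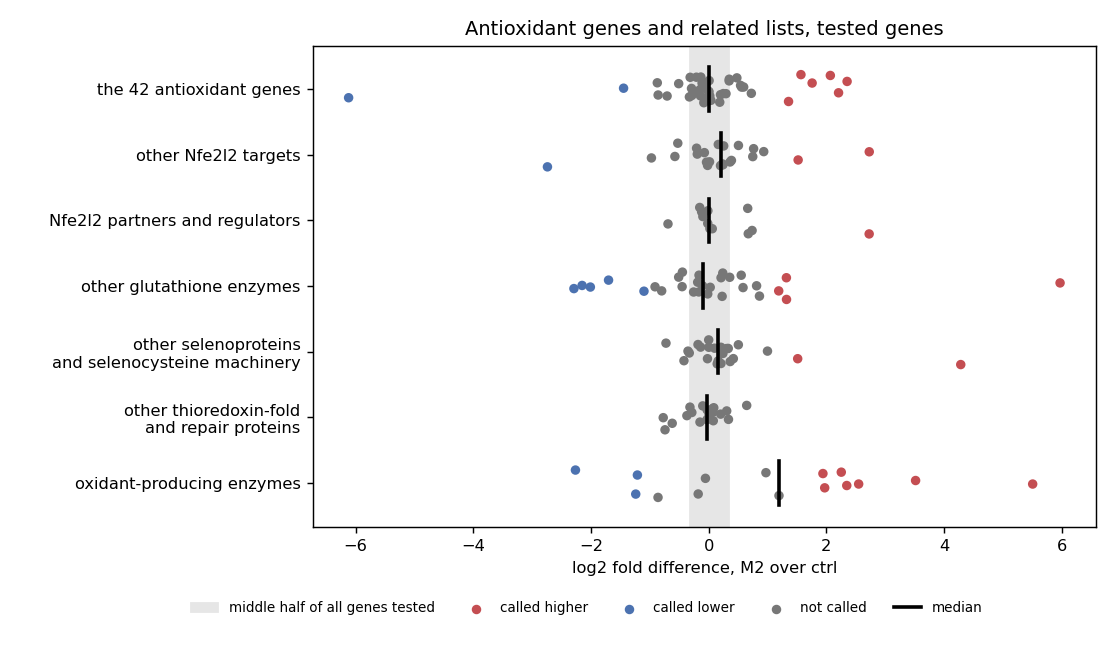
Log2 fold difference (M2 over ctrl) of every tested gene of the 42 antioxidant genes and of 6 related lists, with 1 point per gene, a black bar at the median and a grey band over the middle part of all genes tested (-0.32 to 0.35). The medians lie within the band except that of the oxidant-producing enzymes, at 1.19, which is the value of Ncf1 with 4 and 11 reads.

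The calls also depended on how far cultures of the same kind would vary, which 1 library per group cannot give. When replicates were assumed to vary with a coefficient of 0.2 in the exactTest of edgeR, the 6 genes called higher and Gpx3 still passed, against 5.01% of all genes called higher and 3.59% lower. With 0.4, only Gpx3 passed among the 42 genes, against 0.91% and 0.676% of all genes. Gsta1 did not pass with either value, nor with 0.1.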

How the data were processed

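The members and gene lists were chosen with earlier results of these data known. The authors deposited a table of raw read counts per gene, without normalization, with 1 column for each of the 2 libraries. Aligner, counting tool, annotation and use of strand are not given in the sources used here, and the labels name the builds GRCm38 and mm10. Per the labels, RNA from a column kit went into SMARTER libraries, whereas the study's methods name RNAiso Plus for the isolation of RNA. Start, end and strand in the table were identical to GENCODE M21 for 36 of the 42 genes, and all 42 lie over their GENCODE namesake in the same orientation. Gene length is the exon length that the table lists and was used for TPM. Exons of 8 of the 42 genes overlap another gene, and none of these 8 was called. They are Prdx2, Prdx5, Txnrd2, Txnip, Gclm, Gss, Keap1 and Sqstm1, and their counts may hold reads of the overlapping genes.

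The test took the 19233 genes whose reads in both libraries came to 10 or more. Sizes were scaled by TMM (edgeR 4.0.16, R 4.3.3), with factors of 1.02 and 0.980. Log2 fold differences used a pseudocount of 1. Reads of a gene in M2 out of its total were set against the effective sizes in an exact binomial test, two-sided, with Benjamini-Hochberg adjustment over all genes tested. Intervals of differences are 95% Clopper-Pearson intervals. They cover counting error only, as each group holds 1 library. No molecular identifiers are stated, so repeated copies of a molecule would be counted as separate reads, and the intervals may be too narrow even for counting error. The functions were tested on simulated counts with counting error only, which cannot show how the calls hold under spread between cultures. Values are given in full for each called member, the member with the highest TPM of each group and members at or under 3 reads (0 genes). Of the related lists, up to 4 called genes per direction with the most reads are named. Nox1, Cybb, Ncf1, Noxa1, Lpo, Fth1, Gstm4, Gstm5, the overlapping genes and the markers named beside results were chosen after their values were seen. Protein features were not analysed here.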

Additional observations from a re-analysis of the deposited data

How the results depend on the processing

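Choices were changed singly, and 31 of the 42 genes held both direction and call under all alternatives that could be run for them. Gpx3 was the only called gene among these. The assumed coefficients, the 4-fold threshold and the read filters kept the log2 values, so that direction could not change under them. The uncalled genes lay under the fold threshold and could not become called there. The count of 31 therefore does not show how firm the calls are. Of the 8 called genes, 7 still passed with an assumed coefficient of variation of 0.1 or 0.2 and 1 with 0.4. Among the 42 genes, the number called lower was 1 with a filter of 1 CPM in each library, with each assumed coefficient (0.1, 0.2 and 0.4) and at 4-fold, since Gsta1 drops out; the number called higher was 5 with the 1 CPM filter, where Mgst2 drops out, 3 at 4-fold and 0 with 0.4. Over all genes, 797 were called higher and 583 lower with the 1 CPM filter, 616 and 494 at 4-fold, 964 and 691 with a coefficient of 0.2, and 175 and 130 with 0.4. Scaling by total reads shifted every log2 value by about -0.06, and the small differences of Txnrd1, Txn2, Mgst1 and Gsr, none of them called, changed sign to -0.041, -0.056, -0.053 and -0.023.

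Summed levels moved under that scaling to log2 ratios of -0.27 (all 42 genes), -1.15 (glutathione peroxidases), -0.14 (peroxiredoxins), -0.48 (thioredoxin system), 0.54 (dismutases and catalase), -0.19 (glutathione synthesis), 0.089 (transferases) and -0.014 (Nfe2l2 group), the last with a changed sign. Without the gene with the most reads they were 0.039 (peroxidases without Gpx3), 0.17 (peroxiredoxins without Prdx1), 0.32 (thioredoxin system without Txnip), 1.02 (without Cat), -0.25 (without Gsr), 0.21 (without Mgst1) and -0.17 (without Sqstm1). Leaving out Gpx3 from all 42 genes, chosen after seeing the data, gave -0.0066, and leaving out Gpx3 and Txnip gave 0.14. Depth limits Gsta1, Mgst2, Sod3 and Gstt1, whose reads were few and intervals wide. No paired analysis was possible because ctrl and M2 are single libraries, which also leaves no replicate to omit, and the Wald test of DESeq2 was not run, since it needs replicates.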
